A study of Rattus norvegicus with 12 samples.

Results

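Heat shock proteins and J-domain co-chaperones were examined in the left ventricle (LV) of rats 1 day after surgery. Members were the protein-coding genes of the count table whose symbol began with Hsp or Dnaj, except Hspg2, which encodes the matrix protein perlecan. The rule took 73 of 34599 genes and used no measured value. It gave 12 HSP70 genes (Hspa), 3 HSP90 genes (Hsp90), 8 small HSP genes (Hspb followed by a digit), 5 other HSP genes, 4 DNAJA genes, 13 DNAJB genes and 28 DNAJC genes. The classes go by symbol alone. The other HSPs thus include Hspbp1 and Hspbap1, which are partners of heat shock proteins. The small HSPs leave out Cryab, which was counted in a list of heat shock factors and targets instead. RNA-seq counts of the infarct region, as the labels describe the harvest, came from 12 male Sprague-Dawley (SD) rats, with 4 animals in each of 3 groups. Sham rats underwent thoracotomy without ligation of the left anterior descending (LAD) coronary artery. The part of the Sham LV that was taken is not described. MI rats underwent LAD ligation and received no patch. In iCarP+/Light+ rats the artery was ligated, a suspension of the green alga Chlorella was injected into the infarcted LV, the photonic patch iCarP was adhered to the epicardium with the hydrogel CCS@gel, and the heart was illuminated. The alga, its injection, the patch, the gel and the light came together in this group, so their separate parts in any difference from MI cannot be told apart. Rats with an unlit patch (iCarP+/Light-) are not analysed here.

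Each rat had between 14064414 and 17136958 counted reads. Levels are given as CPM (reads of a gene scaled to a common library size). The floor of detection was taken as 3 reads, which is 0.175 to 0.213 CPM by total counts alone, before the TMM scaling named below. Genes of the mitochondrial genome took between 22.8% and 28.9% of the reads of a Sham rat, between 8.5% and 11.5% for MI and between 7.1% and 14.2% for iCarP+/Light+. The CPM values are scaled by TMM, a method that allows for such shifts in composition where most genes do not change. Of all genes tested, 63.8% differed between MI and Sham and 66.5% between iCarP+/Light+ and Sham at the threshold used below. Results with total counts alone are therefore given as well. The 11 cardiomyocyte markers found in the table had sums between 55647 and 60217 CPM in Sham, but between 3822 and 8039 CPM in MI and between 3335 and 8962 CPM in iCarP+/Light+ rats, with none of them at 0 throughout. The sum of 7 neutrophil markers lay between 117 and 142 CPM (Sham), between 432 and 766 CPM (MI) and between 2379 and 6950 CPM (iCarP+/Light+). Testis germ cell markers, included as a check, summed to at most 0.814 CPM. In whole tissue, fewer cells of a type and less RNA per cell cannot be told apart. No sequencing batch is given for these libraries, so one aligned with the groups cannot be told apart from the conditions.

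Heat shock proteins are molecular chaperones that hold, fold or refold other proteins. HSP70 proteins bind unfolded stretches in cycles of ATP use, J-domain proteins (DNAJ) deliver clients and trigger the ATP step, and exchange factors such as the HSP110 proteins reset the cycle. HSP90 proteins act later on a narrower set of clients, and small HSPs bind unfolding proteins without ATP and are abundant in striated muscle. Separate sets work in the cytosol, in the endoplasmic reticulum (ER) and in mitochondria. Cytosolic genes are classical targets of heat shock factors, and ER genes are classical targets of the unfolded protein response, the transcriptional answer to misfolded protein in the ER lumen.

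Promoter motifs known from these responses were searched in the 250 bases upstream of each gene start, on both strands, in the RefSeq promoters of build GRCr8, where 58 of the 73 members had an entry. The motifs were chosen with the expression results in view, and a match is a description of letters, not of a bound site. The ER stress element, CCAAT and CCACG with 9 free bases between them, stood in 22 of 33469 promoters (0.0657%), and 3 of these belonged to members, namely Hspa5, Hsp90b1 and Dnajc3. These 3 genes were higher in MI than in Sham rats, and so were Dnajb11, Dnajc1 and Hspa13, ER genes for which no match was found. Members without an entry could not be searched. The windows are shown 5′ to 3′ on the strand of the gene, and capitals mark the motif or its reverse complement. They lie at chr3:38452953-38453011 (+) for Hspa5, at chr7:23012431-23012489 (-) and chr7:23012327-23012385 (-) for Hsp90b1, and at chr15:102432514-102432572 (+) for Dnajc3.
Hspa5: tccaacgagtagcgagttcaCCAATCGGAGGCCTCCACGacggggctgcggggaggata
Hsp90b1, window 1: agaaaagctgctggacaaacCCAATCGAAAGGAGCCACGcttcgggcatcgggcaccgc
Hsp90b1, window 2: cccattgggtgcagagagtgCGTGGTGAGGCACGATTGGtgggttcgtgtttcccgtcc
Dnajc3: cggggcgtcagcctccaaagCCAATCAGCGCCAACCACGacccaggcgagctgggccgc

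The heat shock element was searched as GAA, TTC and GAA with 2 free bases between neighbours and stood in 222 promoters (0.663%), of which Hspa8, Hsph1, Hspd1 and Hspe1 were members. Hspd1 and Hspe1 lie head to head on opposite strands and share 211 bases of these promoters, so their matches are the same letters, and 2 matches overlap there. The windows are shown because these cytosolic and mitochondrial chaperones carry the same motif while their values below differ. They lie at chr8:50080281-50080333 (+) and chr8:50080439-50080491 (+) for Hspa8, at chr12:10427312-10427364 (+) for Hsph1 and at chr9:64084242-64084299 (+) for Hspe1.
Hspa8, window 1: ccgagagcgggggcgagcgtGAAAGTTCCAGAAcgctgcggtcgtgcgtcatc
Hspa8, window 2: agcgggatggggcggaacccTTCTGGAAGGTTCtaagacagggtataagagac
Hsph1: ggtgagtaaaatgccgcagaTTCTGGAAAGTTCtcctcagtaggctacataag
Hspe1: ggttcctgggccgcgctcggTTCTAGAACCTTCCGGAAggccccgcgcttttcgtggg

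The unfolded protein response element TGACGTGG stood in 174 promoters (0.52%), and Dnajb3, Dnajc10 and Dnajc25 were the members among them. Of these, Dnajc25 was higher in MI than in Sham rats (log2 fold change 0.81, edgeR adjusted p = 5.7e-05), and Dnajb3 and Dnajc10 did not pass (0.49 and -0.0092, edgeR adjusted p = 0.214 and 0.943). Dnajb9 held none of these letters in its window.

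In Sham LV the small HSPs were the class with the most RNA per length, 47.8% of the members' summed level. Divided by gene length, their sum was 2583 ± 162 CPM per kb (SD, n = 4), against 725 ± 50.9 for HSP70, 639.8 ± 63.2 for HSP90, 489 ± 29.8 for DNAJC, 382 ± 38.3 for other HSPs, 334 ± 16.8 for DNAJA and 247 ± 11.0 for DNAJB. Hspb6, the muscle small HSP also called HSP20, alone made up 22.5% of the summed level of all members at 1213 CPM per kb. It was followed by Hspb7, a small HSP of heart and muscle, at 656 CPM per kb, the constitutive cytosolic HSP90 gene Hsp90ab1 at 549 and the constitutive cytosolic HSP70 gene Hspa8 at 296. The order differed in the other groups. In MI rats Hspb1 (HSP27), a widely expressed small HSP, came first at 915 CPM per kb, and Hspb6 was seventh at 219.9 CPM per kb. In iCarP+/Light+ rats Hspa5, which encodes the ER HSP70 protein BiP, came first at 1087 CPM per kb and made up 18.9% of the members' summed level. The summed HSP70 level did not overlap between any 2 groups, lying between 664 and 770.1 CPM per kb in Sham, between 951 and 1406 in MI, and between 1475 and 2018 in iCarP+/Light+ rats. Hspa5 alone went from 438 CPM per kb in MI to 1087 in iCarP+/Light+ rats, and without it the HSP70 sums were 575 ± 47.5 in Sham, 664 ± 75.6 in MI and 690.3 ± 26.7 CPM per kb in iCarP+/Light+ rats (SD, n = 4). Sham and MI then overlapped, and so did MI and iCarP+/Light+. The summed small HSP level lay between 2386 and 2742 CPM per kb in Sham rats and in the overlapping ranges 1318 to 2140.3 for MI and 1103 to 2298 for iCarP+/Light+.

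**Figure D1:**
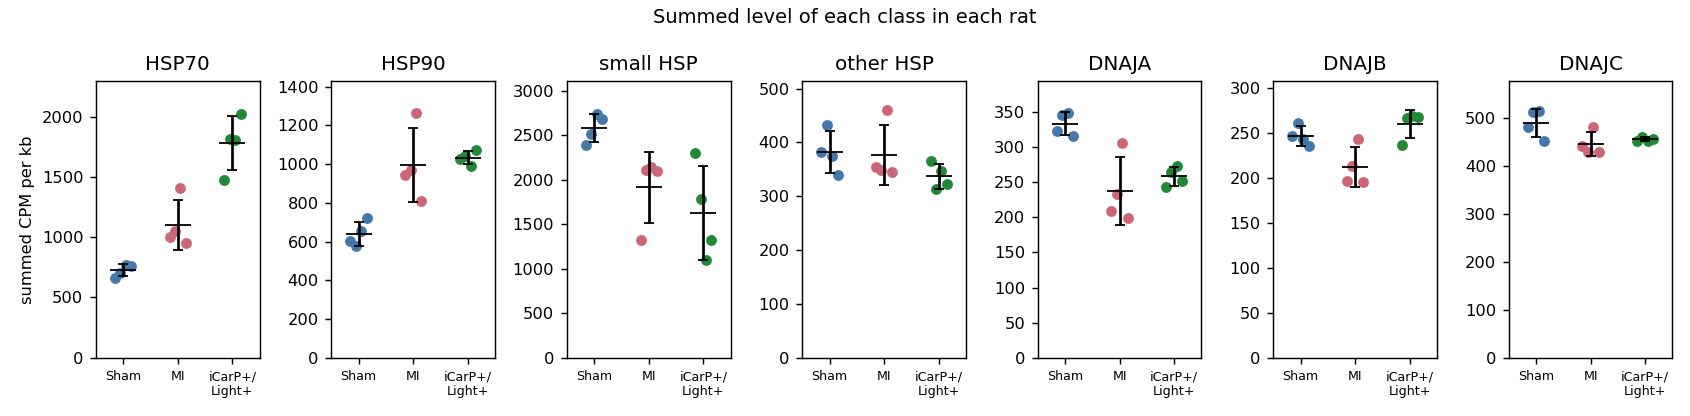
Summed level of each class in each rat, in CPM per kb of gene length on a linear axis from 0, for Sham, MI and iCarP+/Light+; points are rats and bars are the mean ± SD of 4. The HSP70 means are 725, 1102 and 1777 CPM per kb in the order Sham, MI and iCarP+/Light+ (575, 664 and 690.3 without Hspa5), and the small HSP means are 2583, 1916 and 1626 CPM per kb.

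For MI against Sham, 66 members had enough counts to be tested with 15101 genes in all by edgeR's quasi-likelihood test. Of these, 22 were higher and 23 were lower in MI rats at a Benjamini-Hochberg adjusted p below 0.05, and 21 did not pass. Over all genes tested, 63.8% were called, 30.2% higher and 33.6% lower, close to the members' 33.3% and 34.8%. The groups of rats did not overlap for 41 of the 66 members, which is 62.1%, against 59% of all genes. The members' shares were thus near those of all genes, while the classes differed in their counts. Among HSP70 genes 6 were higher and 4 lower, and among small HSPs 1 was higher and 4 lower. One HSP90 gene was higher and none lower, 3 of 5 other HSPs were higher and none lower, and 1 DNAJA gene was higher and 3 lower. The DNAJB genes split into 2 higher and 4 lower of 10 tested, and the DNAJC genes into 8 and 8 of 25. Median log2 fold changes were 0.32 for HSP70, 0.79 for HSP90, -1.18 for small HSPs, 0.73 for other HSPs, -0.80 for DNAJA, -0.17 for DNAJB and 0.06 for DNAJC, beside -0.06 over all genes. Scaling by total counts alone moved the median of all genes to 0.52. It gave 38 members higher and 16 lower, beside 7707 higher and 2776 lower of all 15101 genes. Relative to that median the class medians were 0.37, 0.86, -1.12, 0.78, -0.75, -0.11 and 0.12 in the same order.

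**Figure D2:**
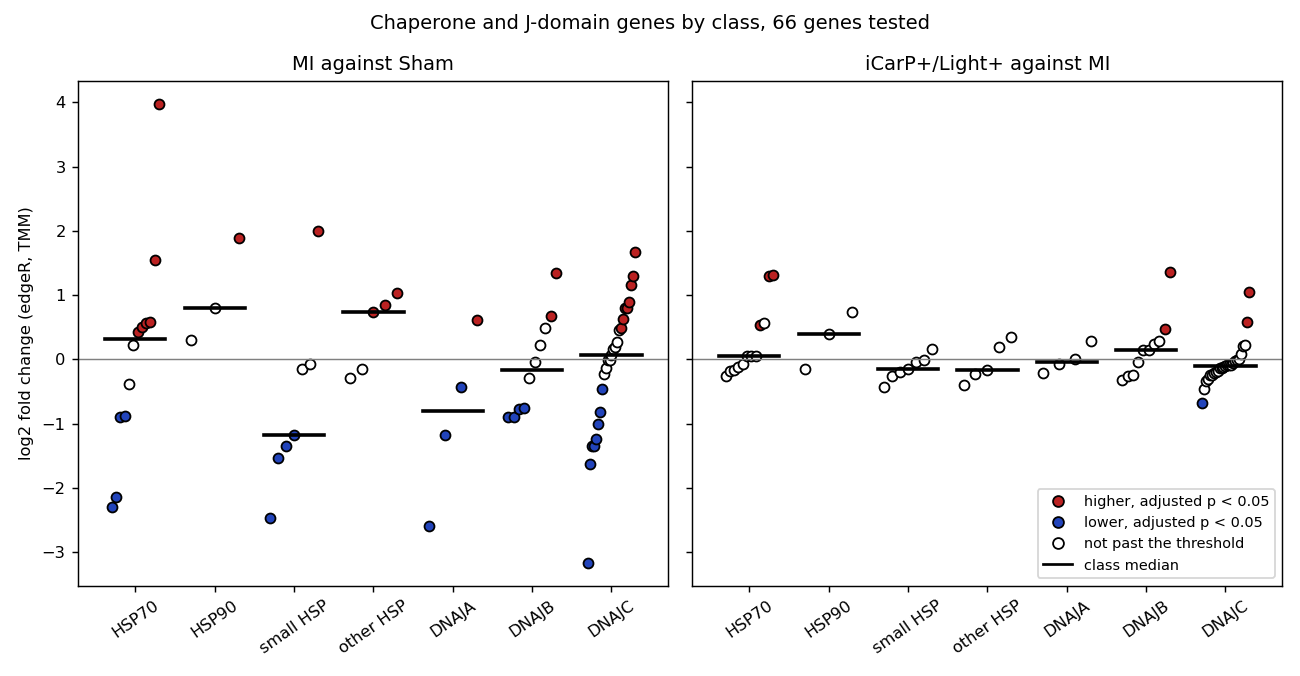
Log2 fold change of each of the 66 tested members by class for MI against Sham (left) and iCarP+/Light+ against MI (right); filled points passed an adjusted p of 0.05, open points did not, and the line is the class median. In MI against Sham 22 members lie above and 23 below zero as filled points, and in iCarP+/Light+ against MI 7 and 1 do.

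The HSP70 genes moved in opposite directions according to the gene. Hspa1b, the stress-inducible cytosolic HSP70, was near the floor in Sham rats at 0.723, 1.16, 0.987 and 0.590 CPM and stood at 8.81, 24.3, 18.0 and 3.94 CPM in MI rats. The groups did not overlap, and the MI rats spread widely among themselves. Its log2 fold change was 3.97 ± 0.55 (SE; edgeR adjusted p = 3.28e-05), the highest of the members. Hspa1b has a near-identical neighbouring copy, Hspa1a, which is not analysed here, and its position (rn6, chr20:4877324-4879779, - strand) lies inside the listed spans of RT1-CE4 and RT1-CE7, so the share of its reads that belongs to it is uncertain. The testis-enriched relatives Hspa1l and Hspa2 stayed low, at means of 5.21 and 4.58 CPM in Sham and 4.00 and 5.36 CPM in MI rats, and did not pass the test (edgeR adjusted p = 0.284 and 0.395).

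Hspa8 was measured at 484, 544, 643 and 623 CPM in Sham and at 752, 793, 1094 and 792 CPM in MI rats. The groups did not overlap, and the log2 fold change was 0.58 (edgeR adjusted p = 0.00303). Hspa4, an HSP110-type exchange factor, rose 1.43-fold (edgeR adjusted p = 3.86e-04), and Hspa14, a ribosome-associated HSP70, rose 1.48-fold (edgeR adjusted p = 0.0018). Hspa4l, a close relative of Hspa4, went the other way, from 13.7, 14.6, 22.3 and 24.5 CPM in Sham to 3.16, 3.78, 5.93 and 4.20 CPM in MI rats (log2 fold change -2.14 ± 0.25 SE, edgeR adjusted p = 8.76e-06). Hspa12a, an atypical HSP70, fell from a mean of 24.6 ± 2.06 CPM to 5.00 ± 1.80 CPM (SD, n = 4; log2 fold change -2.29, edgeR adjusted p = 5.18e-06). Hspa12b, its endothelial-enriched relative, fell to 0.535 of the Sham level (edgeR adjusted p = 1.23e-04), a call that total-count scaling ended (log2 fold change -0.32, edgeR adjusted p = 0.108). Relative to the median of all genes in that scaling Hspa12b was -0.84. The 5 endothelial markers tested were also all lower in MI rats, with sums of 1504 to 1682 CPM in Sham and 636 to 1036 CPM in MI, and their part in the Hspa12b value was not tested.

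Among the HSP90 genes the ER form moved most. Hsp90b1 (GRP94), at 243, 260.1, 262 and 269 CPM in Sham and 909, 971, 1325 and 625 CPM in MI rats, rose 3.70-fold with no overlap (log2 fold change 1.89 ± 0.19 SE, edgeR adjusted p = 2.15e-06). Hsp90ab1 had 1379, 1316, 1500.2 and 1652 CPM in Sham and 1726, 1699, 2211 and 1604 CPM in MI rats, and 1 MI rat lay within the Sham range. Its log2 fold change of 0.31 did not pass (edgeR adjusted p = 0.0538), whereas it did with DESeq2 (0.38, adjusted p = 0.00328) and with limma-voom (0.30, adjusted p = 0.0437). Of the HSP90 genes, the inducible form Hsp90aa1 varied most within groups relative to its mean, from 7.44 to 46.3 CPM in Sham and from 26.1 to 74.0 CPM in MI rats. Its log2 fold change of 0.79 ± 0.50 did not pass (edgeR adjusted p = 0.185).

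The small HSPs divided between Hspb1 and the muscle genes. Hspb1 stood at 204, 186, 227 and 191 CPM in Sham and at 489, 968, 935 and 826 CPM in MI rats, a 3.98-fold rise without overlap (log2 fold change 1.99 ± 0.23 SE, edgeR adjusted p = 7.77e-06). Hspb6 went from 1265, 1469.7, 1832 and 1791 CPM to 206, 328, 311 and 308 CPM. The MI level was 0.181 of the Sham level (log2 fold change -2.46 ± 0.36 SE, edgeR adjusted p = 5.77e-05). Hspb2 and Hspb3, a pair that form a complex in muscle, fell to 0.347 and 0.394 of the Sham level (edgeR adjusted p = 7.77e-05 and 0.00259). Hspb8, which works with the exchange factor Bag3 in muscle, fell to 0.442 (edgeR adjusted p = 5.44e-06). Hspb7 was at 944, 1117, 1213 and 1457 CPM in MI rats against 1373, 1377, 1235 and 1279.8 CPM in Sham rats. These groups overlapped and the difference did not pass (log2 fold change -0.15 ± 0.24 SE, edgeR adjusted p = 0.598). Hspb11 had means of 4.33, 4.14 and 4.64 CPM in Sham, MI and iCarP+/Light+ rats and did not pass either. Of the 11 cardiomyocyte markers, 10 were lower in MI rats with a median log2 fold change of -3.25, which is below the value of each small HSP, and their part in the small HSP values was not tested.

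**Figure D3:**
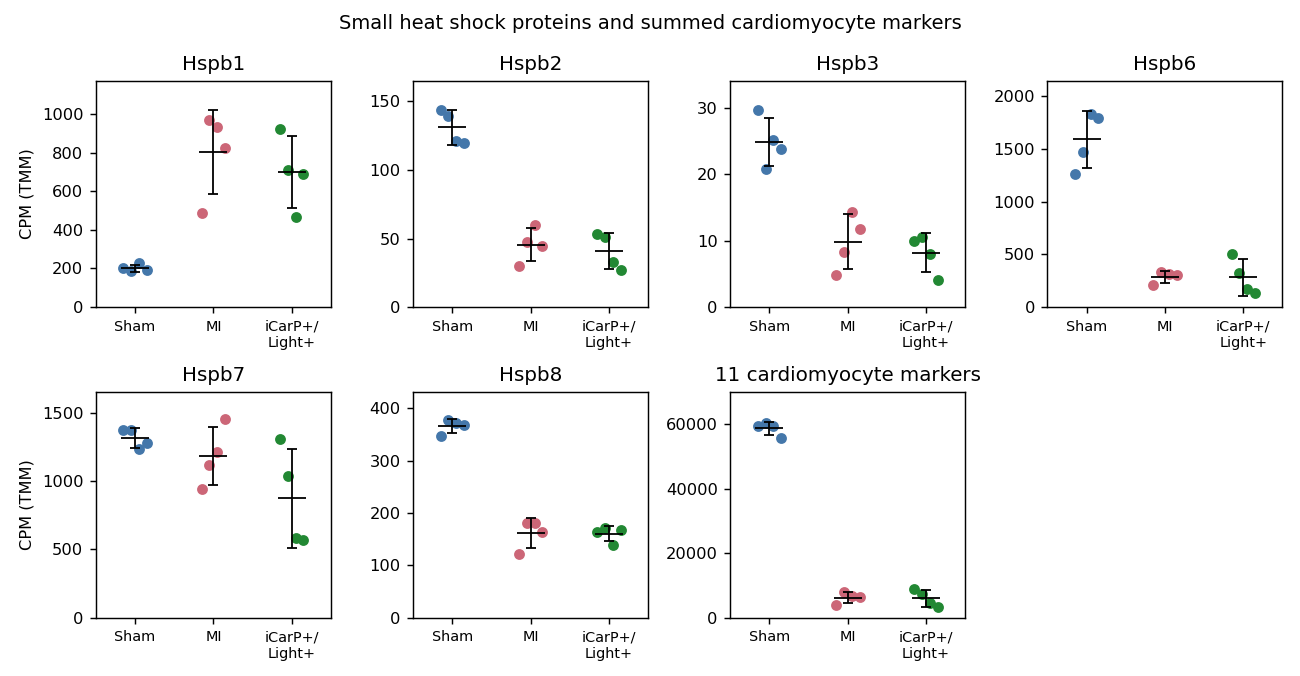
CPM of 6 small HSP genes and the summed CPM of 11 cardiomyocyte markers in each rat on linear axes from 0; points are rats and bars are the mean ± SD of 4. Hspb1 is higher in every MI rat (489 to 968 CPM) than in any Sham rat, Hspb2, Hspb3, Hspb6 and Hspb8 are lower, and Hspb7 overlaps between Sham and MI.

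Members were also grouped by the compartment in which they work, a grouping drawn up after the values had been seen and given as a description only. Of 8 members known from the ER lumen, 6 were higher in MI rats, none was lower and the median log2 fold change was 1.25, where 30.2% of all genes were higher and 33.6% lower with a median of -0.06. Of 6 macrophage and monocyte markers 5 were also higher, with sums of 333 to 544 CPM in Sham and 3535 to 6393 CPM in MI rats, and so were 5 of 6 neutrophil markers. Their part in the ER values was not tested. Hspa5 (rn6, chr3:13838304-13842762, + strand) went from 369.7, 385, 373 and 412 CPM in Sham to 980.4, 1075, 1613 and 822 CPM in MI rats, a 2.92-fold rise (log2 fold change 1.54 ± 0.20 SE, edgeR adjusted p = 2.28e-05). Dnajc3, the ER J-domain protein also known to inhibit the stress kinase PERK, rose from 26.0, 25.6, 23.7 and 22.9 CPM to 79.2, 71.7, 94.5 and 68.2 CPM (log2 fold change 1.67 ± 0.13 SE, edgeR adjusted p = 3.43e-07). Dnajb11 (ERdj3), which delivers clients to BiP, rose 2.53-fold, Dnajc1 (ERdj1) rose 2.22-fold and Hspa13, a microsomal HSP70, rose 1.34-fold (edgeR adjusted p = 9.91e-07, 4.53e-06 and 0.00857). Dnajb9 (ERdj4), a BiP regulator that feeds back on the ER stress sensor IRE1, was not among them. It had 51.3, 47.2, 49.7 and 49.3 CPM in Sham and 35.4, 39.7, 55.2 and 31.8 CPM in MI rats, so that 3 MI rats were below all Sham rats and 1 was above (edgeR adjusted p = 0.178); without MI 4 the log2 fold change was -0.46 and passed (adjusted p = 0.0194). Dnajc10 (ERdj5), an ER reductase, had 126 ± 6.44 and 125 ± 2.79 CPM and did not pass.

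Of 10 members known from mitochondria, none was higher in MI rats, 7 were lower and the median log2 fold change was -0.95, against the same shares and median of all genes. With total-count scaling 2 were higher and 6 lower. The call lost there was that of Dnajc30, named here after its values were seen. It had a log2 fold change of -0.46 (edgeR adjusted p = 0.028) and passed in 6 of 12 fits with a rat left out. With total counts Dnajc30 turned to 0.13 (edgeR adjusted p = 0.517), which was -0.40 relative to the median of all genes in that scaling. Dnajc28 fell most of all members, from 14.7, 17.7, 20.1 and 17.2 CPM in Sham to 1.48, 3.02, 1.51 and 1.76 CPM in MI rats (log2 fold change -3.16 ± 0.26 SE, edgeR adjusted p = 5.08e-07). The J-domain proteins of the inner-membrane import motor, Dnajc15 and Dnajc19, fell to 0.322 and 0.495 of the Sham level (edgeR adjusted p = 1.35e-05 and 2.9e-04), although Dnajc19 overlaps the opposite-strand gene Fxr1. Hspa9 (mortalin), the mitochondrial HSP70 of that motor, fell from 397, 392, 431 and 401 CPM to 242, 222, 192 and 222 CPM. Its log2 fold change was -0.88 ± 0.10 (SE; edgeR adjusted p = 7.03e-06), and its partner Dnaja3 fell to 0.443 (edgeR adjusted p = 1.62e-06). The chaperonin pair Hspd1 (HSP60) and Hspe1 (HSP10) did not pass, at log2 fold changes of -0.15 and -0.29 (edgeR adjusted p = 0.303 and 0.198). With total-count scaling Hspd1 changed sign and passed (0.43, adjusted p = 0.00639), while relative to the median of all genes in that scaling it was -0.09. Dnajc11, which did not pass with TMM (-0.14), also passed as higher there (0.44, adjusted p = 0.00551; -0.08 relative to the median). The share of reads from the mitochondrial genome and the cardiomyocyte markers were lower in the same rats, and their part in these values was not tested.

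**Figure D4:**
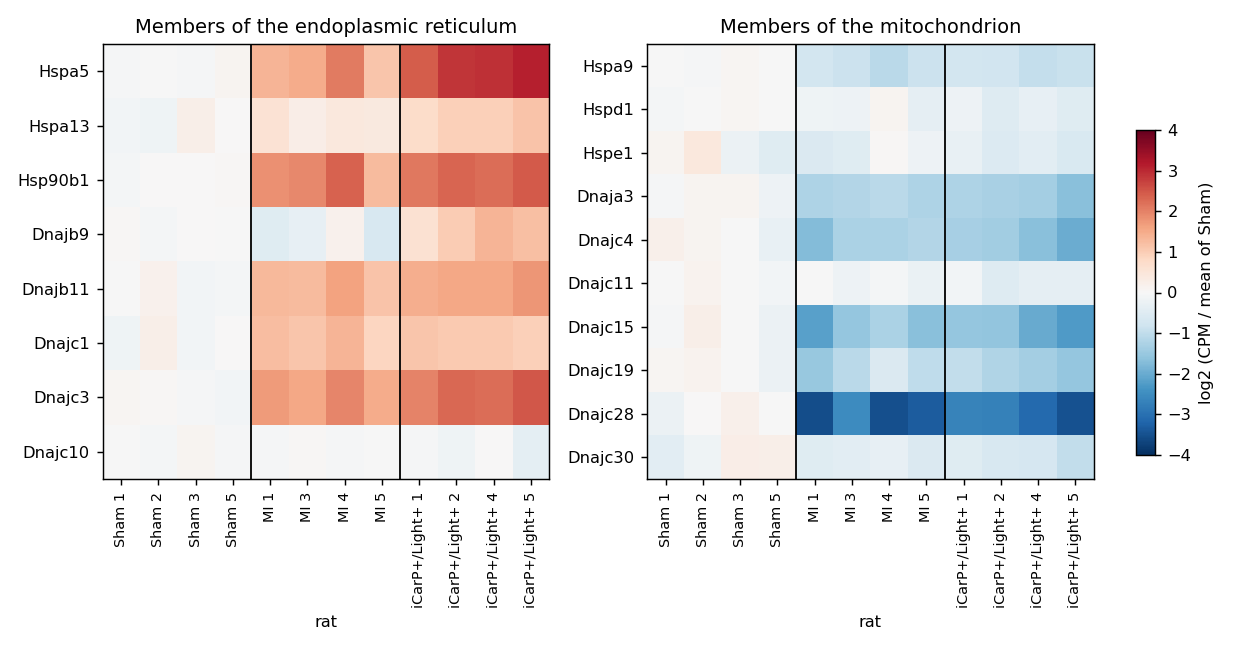
Log2 ratio of each rat's CPM to the Sham mean for 8 members of the ER and 10 of the mitochondrion; columns are rats, red is above and blue is below the Sham mean. Hspa5, Hsp90b1, Dnajb11, Dnajc1 and Dnajc3 are red in all MI and iCarP+/Light+ rats, Dnajb9 is red in all iCarP+/Light+ rats but in only 1 MI rat, and Dnajc28 is the darkest blue row.

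The cytosolic J-domain genes moved in both directions. Dnaja4 dropped from 149, 174, 178 and 140.3 CPM in Sham to 19.9, 31.8, 28.6 and 26.1 CPM in MI rats (log2 fold change -2.59 ± 0.18 SE, edgeR adjusted p = 1.75e-07). Dnaja1, a main cytosolic partner of Hspa8, rose 1.52-fold (edgeR adjusted p = 0.0111), from 119 to 128 CPM in Sham to 148 to 280.0 CPM in MI rats. Its close relative Dnaja2 fell to 0.743 of the Sham level (edgeR adjusted p = 0.00302), but this sign turned with total-count scaling (0.15). Relative to the median of all genes in that scaling Dnaja2 was -0.37. In the DNAJB class, Dnajb4, Dnajb5, Dnajb6 and Dnajb2 fell to 0.535, 0.591, 0.588 and 0.539 (edgeR adjusted p = 2.86e-04, 0.00253, 1.76e-05 and 2.64e-05), of which Dnajb4, Dnajb5 and Dnajb6 did not pass with total-count scaling. Dnajb6 suppresses protein aggregation. Dnajb1 (HSP40), the heat-inducible J-domain protein, had 47.9 to 57.6 CPM in Sham and 55.1 to 68.7 CPM in MI rats and did not pass (log2 fold change 0.22, edgeR adjusted p = 0.141). Dnajb14, an ER-membrane member with a 1.59-fold higher level, lost its call without MI 1 (log2 fold change 0.46, adjusted p = 0.0767) or without Sham 2 (0.57, adjusted p = 0.0588) and overlaps the gene H2afz.

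The DNAJC class held as many higher as lower genes. Besides Dnajc3 and Dnajc1, the higher ones with the largest fold changes were Dnajc22, at 2.47-fold (edgeR adjusted p = 5.56e-05), and Dnajc2, at 1.86-fold (edgeR adjusted p = 7.93e-06). Dnajc2 is the ribosome-associated partner of Hspa14. Dnajc9, a co-chaperone of histones H3 and H4, rose 1.55-fold from 22.2 to 24.2 CPM in Sham to 29.5 to 46.1 CPM in MI rats (edgeR adjusted p = 0.00549). The lower ones with the largest changes after Dnajc28 and Dnajc15 were Dnajc27 and Dnajc4, at 0.392 and 0.393 of the Sham level (edgeR adjusted p = 9.96e-07 and 2.72e-05). Among the other HSPs, Hsph1 (HSP110) rose 2.05-fold from 48.7, 68.0, 72.9 and 53.7 CPM to 105, 124, 163 and 108 CPM (edgeR adjusted p = 1.68e-04). Hspbp1, an HSP70 exchange factor, rose 1.66-fold (edgeR adjusted p = 3.98e-04). Hspbap1, an HSPB1-associated protein, rose 1.80-fold (edgeR adjusted p = 0.0172), a call lost without MI 4 (log2 fold change 0.66, adjusted p = 0.0554).

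For iCarP+/Light+ against MI, 7 members were higher, 1 was lower and 58 did not pass. Over all genes tested 13.6% were called, 11.6% higher and 2.01% lower, beside 10.6% and 1.52% of the members. Of the 7 higher members, 4 belonged to the ER set (Hspa5, Hspa13, Dnajb9 and Dnajc3), and the others were the HSP110-type Hspa4l, the anti-aggregation protein Dnajb6 and Dnajc5, the cysteine string protein of secretory vesicles. No HSP90, small HSP, other HSP, DNAJA or mitochondrial member passed in either direction in edgeR with TMM scaling and all 12 rats. Of the 26 genes tested in these groups, Hsp90b1 and Hspbp1 were the 2 with an unadjusted p below 0.05, and DESeq2 called Hspbp1. Without iCarP+/Light+ 5 the higher members numbered 4. The lower ones numbered 0 without iCarP+/Light+ 2, 2 without MI 5 and 4 without iCarP+/Light+ 1. Scaling by total counts alone, which put the median of all genes at -0.25, gave 3 higher and 14 lower, beside 1204 higher and 2722 lower of all 15101 genes. Among the lower members were Hsp90ab1, Hspbp1 and the mitochondrial members Hspd1, Dnaja3, Dnajc11 and Dnajc30. Hspa4l, Hspa5 and Dnajb9 were the 3 that passed in each of 22 alternative analyses.

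Hspa5 stood at 2064, 2824, 2915 and 3338 CPM in iCarP+/Light+ rats, all above the highest MI rat at 1613 CPM. The level was 2.48-fold that of MI (log2 fold change 1.31 ± 0.20 SE, edgeR adjusted p = 7.03e-04), on top of the rise from Sham to MI. Dnajb9 reached 75.9, 100.4, 127 and 113 CPM, above every MI and every Sham rat, a 2.57-fold difference from MI (log2 fold change 1.36 ± 0.18 SE, edgeR adjusted p = 2.25e-04). These were the largest rises among the members.

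Hspa13 had 71.3, 84.5, 84.1 and 95.2 CPM against 65.1, 52.2, 57.5 and 56.2 CPM in MI rats (1.45-fold, edgeR adjusted p = 0.00907). Dnajc3 had 97.5, 121, 116 and 137 CPM against 79.2, 71.7, 94.5 and 68.2 CPM (log2 fold change 0.59, edgeR adjusted p = 0.00695). Neither gene overlapped between the groups, but iCarP+/Light+ 5 was the highest rat for both, and without it neither passed (log2 fold change 0.39, adjusted p = 0.0683 for Hspa13, and 0.43, adjusted p = 0.0545 for Dnajc3). With total-count scaling they did not pass either (0.26, edgeR adjusted p = 0.092 and 0.32, edgeR adjusted p = 0.053). Relative to the median of all genes in that scaling they were 0.52 and 0.57. The remaining 4 ER members did not pass, namely Hsp90b1 at log2 0.40, Dnajb11 at 0.24, Dnajc1 at -0.11 and Dnajc10 at -0.13 (edgeR adjusted p = 0.189, 0.227, 0.631 and 0.472). With total-count scaling Dnajc10 passed as lower (-0.39, adjusted p = 0.0276; -0.14 relative to the median of all genes), so that 2 ER members were higher and 1 was lower. Hsp90b1 was 1127, 1292, 1216 and 1414 CPM in iCarP+/Light+ rats, above 3 of the MI rats throughout, but 3 of these rats were below the 1325 CPM of MI 4.

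Hspa4l had 9.08, 13.7, 9.69 and 9.28 CPM in iCarP+/Light+ rats, all above the MI range of 3.16 to 5.93 CPM and all at or below the lowest Sham rat at 13.7 CPM. Its log2 fold change against MI was 1.29 ± 0.25 (SE; edgeR adjusted p = 0.00353). Dnajb6 likewise lay between the other groups without overlap, at 78.6, 86.8, 88.6 and 82.1 CPM against 55.1 to 66.7 CPM in MI and 94.4 to 111 CPM in Sham rats (log2 fold change 0.47 ± 0.10 SE, edgeR adjusted p = 0.00559). With total-count scaling it did not pass (0.21, edgeR adjusted p = 0.121), and relative to the median of all genes in that scaling it was 0.46. Dnajc5 had 33.0, 61.0, 55.6 and 77.8 CPM against 30.3, 26.9, 16.4 and 36.2 CPM in MI rats. The groups overlapped, and the log2 fold change of 1.05 (edgeR adjusted p = 0.0169) did not pass without iCarP+/Light+ 5 (0.78, edgeR adjusted p = 0.0856) or with total-count scaling (0.76, edgeR adjusted p = 0.0515). Dnajc5 was 1.01 relative to the median of all genes in that scaling.

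Dnajc9 was the 1 member that was lower after the treatment than in MI rats, at 25.4, 19.5, 27.9 and 17.0 CPM against 36.4, 29.5, 46.1 and 32.0 CPM (log2 fold change -0.68 ± 0.17 SE, edgeR adjusted p = 0.0158). The groups did not overlap, and the treated values lay around the Sham range of 22.2 to 24.2 CPM. Without iCarP+/Light+ 2 the difference did not pass (-0.62, adjusted p = 0.0552). In all, the groups did not overlap for 7 members that were higher (10.6%, against 12.1% of all genes) and 2 that were lower (3.03%, against 4.37%). They included Dnajc14, at 44.3 to 49.2 CPM against 38.1 to 41.9 CPM, and Dnaja3, at 43.6 to 59.2 CPM against 59.5 to 65.6 CPM, neither of which passed the adjusted threshold (edgeR adjusted p = 0.118 and 0.279). For 4 rats against 4, no overlap corresponds to 0.0286 in a two-sided exact permutation test, the smallest p it can give.

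Several other named members did not pass in this comparison. Hspa1b was 12.8, 16.7, 22.1 and 30.3 CPM in iCarP+/Light+ rats, which overlapped the MI rats (log2 fold change 0.57 ± 0.44 SE, edgeR adjusted p = 0.466). Hspb7 was 1308, 1039.8, 587 and 568 CPM, so that 2 rats lay in the MI range and 2 below it. These last 2 rats also had the lowest sums of cardiomyocyte markers of their group, 4450.0 and 3335 CPM against 8962 and 7470.0 CPM in the others (their part in the value was not tested), and Hspb7 did not pass (log2 fold change -0.43, edgeR adjusted p = 0.296). Hspbp1 fell short of the threshold at log2 -0.41 (edgeR adjusted p = 0.0666) but passed with DESeq2 (-0.46, adjusted p = 0.0165). Without MI 4, which had the highest Hsp90b1, Dnajb11 and Dnaja1 levels of its group, these genes passed as higher in treated rats, at log2 fold changes of 0.59 (adjusted p = 0.0239), 0.34 (adjusted p = 0.0455) and 0.54 (adjusted p = 0.0103).

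**Figure D5:**
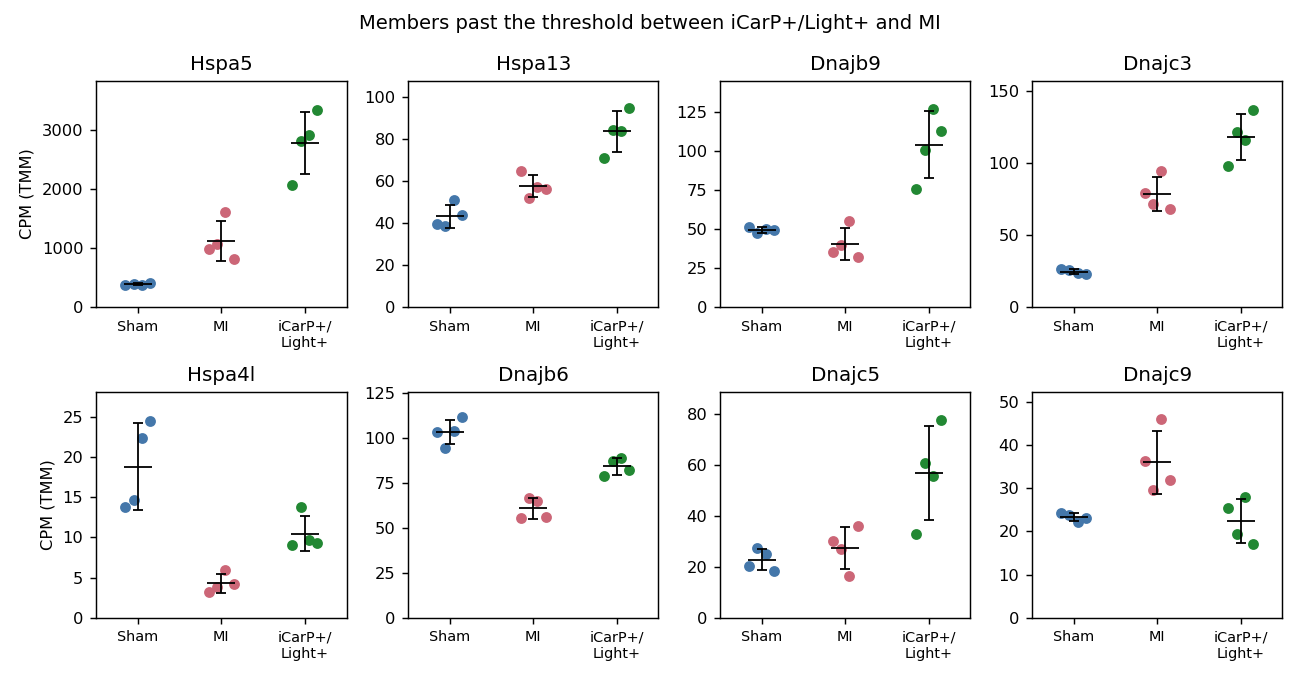
CPM of the 8 members that passed between iCarP+/Light+ and MI in each rat of the 3 groups on linear axes from 0; points are rats and bars are the mean ± SD of 4. Hspa5 and Dnajb9 are highest in all 4 iCarP+/Light+ rats, Hspa4l and Dnajb6 lie between MI and Sham or at the low end of Sham, Dnajc5 overlaps between MI and iCarP+/Light+, and Dnajc9 is highest in MI.

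Values for other cells moved with this comparison. All 6 neutrophil markers tested were higher in the treated rats, with a median log2 fold change of 3.22. The neutrophil sums in iCarP+/Light+ 1, 2, 4 and 5 were 2379, 5769, 4179.6 and 6950 CPM, and the lowest and the highest of these rats were also the lowest and the highest for Hspa5, Hspa13, Dnajc3 and Dnajc5. For the other 3 higher members the lowest rat was the same, but the highest was iCarP+/Light+ 4 for Dnajb9 and Dnajb6 and iCarP+/Light+ 2 for Hspa4l. The cardiomyocyte sums of the same rats were 8962, 7470.0, 4450.0 and 3335 CPM, falling in the order in which Hspa5 rose. The part of neutrophils and of cardiomyocytes in these values was not tested. Of 3 red blood cell markers, 2 were also higher, with sums of 505 to 2135 CPM in MI and 1834 to 5209 CPM in iCarP+/Light+ rats. Sums of 6 macrophage and monocyte markers overlapped between iCarP+/Light+ (2721 to 4511 CPM) and MI rats (3535 to 6393 CPM), and so did the sums of cardiomyocyte, endothelial and fibroblast markers.

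The rises and falls of the 8 called members combined with those of MI against Sham as follows, for comparisons that share the MI rats. Hspa5, Hspa13 and Dnajc3 were higher in MI than in Sham and higher again in iCarP+/Light+ rats. Hspa4l and Dnajb6 were lower in MI than in Sham and higher in the treated rats than in MI. Dnajb9 and Dnajc5 passed in the second comparison only, and Dnajc9 was higher in MI and lower in iCarP+/Light+ rats. Of the other 58 tested members, 18 were higher and 21 were lower in MI than in Sham and did not pass between iCarP+/Light+ and MI, and 19 passed in neither.

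Against Sham, iCarP+/Light+ rats had 24 members higher and 27 lower, beside 66.5% of all genes called, 33.5% higher and 33% lower (members 36.4% and 40.9%). Total-count scaling gave 30 members higher and 19 lower, beside 6664 and 3639 of all 15101 genes. Of the 8 ER members 7 were higher, with Hspa5 at 7.24-fold, Hsp90b1 at 4.88-fold, Dnajc3 at 4.80-fold, Dnajb11 at 2.99-fold and Dnajb9 at 2.11-fold of the Sham level (edgeR adjusted p = 1.62e-07, 3.78e-07, 3.35e-08, 1.98e-07 and 1.46e-04). All 10 mitochondrial members were lower, but 6 with total-count scaling, in which Hspd1, Hspe1, Dnajc11 and Dnajc30 did not pass. The calls of Hspd1 and Hspe1 (edgeR adjusted p = 0.0157 and 0.0464) were lost in 3 and 14 of 22 alternatives, and that of Dnajc11 held in 10 of 12 fits with a rat left out. In the same comparison all 6 neutrophil and 5 of 6 macrophage and monocyte markers were higher (median log2 fold changes 8.53 and 2.29) and 10 of 11 cardiomyocyte markers were lower (-3.26); their part in the ER and mitochondrial values was not tested. Hsp90aa1 passed here with 73.1, 53.6, 41.8 and 135 CPM against 7.44 to 46.3 CPM in Sham (2.89-fold, edgeR adjusted p = 0.0176), but the groups overlapped and it did not pass without iCarP+/Light+ 5 (log2 fold change 1.13, adjusted p = 0.0646). Dnajb1 was 1.42-fold higher than in Sham (edgeR adjusted p = 0.00337). Hspb7 was lower at 0.665 of the Sham level (edgeR adjusted p = 0.0477), a call lost in 15 of 22 alternatives.

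Partner genes of the chaperones were counted in 5 lists, to be read beside the 30.2% higher and 33.6% lower of all genes in MI against Sham and their median of -0.06. Of 14 subunits tested from the cytosolic chaperonin CCT and its helper prefoldin, 9 were higher in MI than in Sham and none was lower (median log2 fold change 0.61), led by Cct6a at 1.30 and Pfdn4 at 1.09 (edgeR adjusted p = 4.47e-07 and 4.2e-04). Of 12 mitochondrial chaperone partners and proteases, 1 was higher and 7 were lower (median -0.50), with the ClpXP unfoldase Clpx at -1.80 and the import protein Timm44 at -1.32 (edgeR adjusted p = 1.62e-06 and 6.8e-07). Of 17 genes listed as HSP90 co-chaperones, 8 were higher and 4 were lower (median 0.31). The list includes Trap1, a mitochondrial HSP90 gene that the symbol rule for members left out. The higher ones included Fkbp5, a glucocorticoid-responsive immunophilin, at 1.61 and the p23 gene Ptges3 at 0.92 (edgeR adjusted p = 1.85e-04 and 1.69e-05). The lower ones included the myosin chaperone Unc45b, from 167 to 22.2 CPM on average, at -2.91 (edgeR adjusted p = 1.04e-06). The cardiomyocyte markers (10 of 11 lower, median -3.25) and the share of reads from the mitochondrial genome were lower in the same rats, and their part in these values was not tested.

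Of 13 exchange factors and adaptors of HSP70, 4 were higher and 4 were lower (median 0.20), near the shares of all genes. Hyou1, the ER exchange factor that serves BiP, was higher in MI than in Sham (log2 fold change 1.09, edgeR adjusted p = 2.82e-06) and again in iCarP+/Light+ against MI (0.53, edgeR adjusted p = 0.00561), whereas Grpel1, the mitochondrial exchange factor for Hspa9, fell by 1.45 on the log2 scale from Sham to MI (edgeR adjusted p = 1.23e-06). Of 13 heat shock factors and targets tested, 1 was higher and 3 were lower in MI rats (median -0.34), both below the shares of all genes. The list holds no Hsp or Dnaj gene. Inducible members given above, such as Hspa1b (higher in MI) and Dnajb1 (not past the threshold), are therefore outside these counts. The heat shock factor genes Hsf1 and Hsf2 did not pass (-0.09 and -0.20, edgeR adjusted p = 0.536 and 0.116). Hmox1, the heme oxygenase that is also induced by heme and oxidants, was the higher one at 4.25 (edgeR adjusted p = 2.89e-07), and the Hspb8 partner Bag3 was lower at -1.26 (edgeR adjusted p = 6.06e-06). Between iCarP+/Light+ and MI rats, 2 of these targets were higher, Hmox1 at 1.00 and the polyubiquitin gene Ubb at 0.56 (edgeR adjusted p = 0.0331 and 0.0371), and over the other lists only Hyou1 (higher) and the HSP90 co-chaperone Aarsd1 (lower, -0.52, edgeR adjusted p = 0.0124) passed.

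The 7 untested members had few reads. Dnajb8 had none in any rat, Dnajc5g had 1 read and Dnajc5b 8 reads in all 12 rats together, and Dnajb7, Dnajc6, Hspb9 and Dnajb13 had 17, 43, 55 and 63 reads. No group differences were detectable for them at this depth.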

How the data were processed

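The authors deposited 1 table of raw counts per gene, whole numbers without normalization, with a column for each of 12 rats and the symbol, type, position and length of each gene; no column was left unmapped, and 1716 of 34599 rows had no symbol. The submitters' processing notes name HISAT2, featureCounts and build rn6. Strand setting, versions and annotation release are not given in the sources used here, so reads of a gene and of a gene overlapping it cannot be told apart. Total RNA came from LV tissue.

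Counts were fitted in R 4.3.3 with edgeR 4.0.16 (filterByExpr with minimum count 10, TMM, quasi-likelihood test, 1 mean per group, all 12 rats), with Benjamini-Hochberg adjustment over 15101 genes and a threshold of 0.05. CPM per kb used the listed gene length. For single members, log2 CPM (prior count 2) was permuted exactly over the 70 arrangements of 4 rats against 4, two-sided. The floor of 3 reads covers counting error only. Pairs of rats within a group differed by a chi-square of 14.1 to 113.7 per gene, far above counting noise, so none was a copy. DESeq2 1.42.0, limma 3.58.1 (voom), other filters and scalings, a replicate block and each rat left out were tried. Promoters came from RefSeq (GRCr8); figures from matplotlib 3.10.9.

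Members, lists, motifs and tests were chosen with earlier results of these data known. Named with values were all HSP90 genes, Hspd1, Hspe1 and Hsph1, up to 4 called genes with the largest change per class, direction and comparison, a set of members by role, and up to 6 members without overlap between iCarP+/Light+ and MI; Hspb11, Dnajb3, Dnajc10, Dnajc11, Dnajc14, Dnajc19, Dnajc25 and Dnajc30 were added after their values were seen; the ER and mitochondrial sets were drawn up after the values were seen.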

Additional observations from a re-analysis of the deposited data

Results flagged for a closer look

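In each group of 4 rats, on the log2 CPM scale (prior count 2), the gap of the highest or lowest rat to its nearest neighbour was divided by the whole range and set against Dixon's 95% critical value. Over the 168 groups of the members given with values 6 exceeded it, beside 8.4 that chance would give. Dnajb5 was high in Sham 2 (81.0 CPM against 48.2 to 50.7, ratio 0.901). Hspb6 was low in MI 1 (206 CPM against 308 to 328, ratio 0.863), and so was Dnajc4 (6.80 CPM against 9.40 or more, ratio 0.838). Hspa8 was high in MI 4 (1094 CPM against 752 to 793, ratio 0.858). Hspa4l was high in iCarP+/Light+ 2 (13.7 CPM against 9.08 to 9.69, ratio 0.843). Hspa12a was low in iCarP+/Light+ 5 (2.81 CPM against 4.45 to 4.83, ratio 0.844). MI 1 and iCarP+/Light+ 5 also had the lowest sums of cardiomyocyte markers of their groups (3822 and 3335 CPM), and the part of this in the values was not tested.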

How the results depend on the processing

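Each of 168 differences of the 56 tested members given with values was recomputed under 22 alternatives. Outside the fits that left a rat out, 1537 of 1677 values kept direction and side of the threshold, 46 lost the call, 32 gained it and 62 changed sign; with each rat left out these were 1910, 51, 13 and 42 of 2016. Changes of sign were, apart from Dnaja2 and Dnajc30 in MI against Sham and Dnajb6 in iCarP+/Light+ against Sham, of differences that did not pass. What depth limits is the members near the floor of 3 counts, 0.175 to 0.213 CPM by total counts alone. The causes of these changes were not tested.

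With total counts alone, 38 members were higher in MI than in Sham, beside 7707 of all 15101 genes. In iCarP+/Light+ against MI rats 3 members were higher and 14 lower, beside 1204 and 2722 of all genes. In that scaling the log2 fold changes of opposite sign among these members were, for MI against Sham, 0.19 for Hspa1l, 0.43 for Hspb7, 0.50 for Hspb11, 0.43 for Hspd1, 0.28 for Hspe1, 0.15 for Dnaja2, 0.29 for Dnajb9, 0.57 for Dnajc10, 0.44 for Dnajc11, 0.57 for Dnajc14 and 0.13 for Dnajc30; for iCarP+/Light+ against MI, -0.22 for Hspa4, -0.22 for Hspa8, -0.22 for Hspa9, -0.0966 for Hspb11, -0.0571 for Hspbap1, -0.25 for Dnaja2, -0.13 for Dnajb3, -0.0245 for Dnajb11, -0.0625 for Dnajc14, -0.27 for Dnajc25 and -0.0484 for Dnajc28; and for iCarP+/Light+ against Sham, 0.0193 for Dnajb6, 0.27 for Dnajc9 and 0.18 for Dnajc10. The other signs that turned with all rats kept were of small differences. For MI against Sham they were those of Hspb11, Dnajc10 and Dnajc14, at 0.0057, 0.0617 and 0.0590 with DESeq2's size factors, 0.0035, 0.0618 and 0.0585 with DESeq2, and 0.0138, 0.0707 and 0.0682 when every sample needed 10 counts. Dnajc10 and Dnajc14 were 0.0218 and 0.0190 with at least 1 count, 0.0221 and 0.0195 without the mitochondrial genome and 0.13 and 0.13 with only the rats compared, where Hspb11 was 0.0693. For iCarP+/Light+ against MI, Hspa8 was -0.0030 under DESeq2 and its size factors and -0.0122 when every sample needed 10 counts. Dnaja2 and Dnajc25 were -0.0452 and -0.0477 with DESeq2's size factors, -0.0451 and -0.0488 with DESeq2, -0.0529 and -0.0563 when every sample needed 10 counts, -0.0064 and -0.0108 with at least 1 count, -0.0357 and -0.0393 without the mitochondrial genome and -0.0347 and -0.0384 with only the rats compared. Hspa4 was -0.0061 and Hspa9 -0.0084 with the 10-count minimum, and limma-voom gave 0.00070 for Hspb8 and -0.0011 for Dnajc25. The count of members lower than in MI was 2 under DESeq2, its size factors, the 10-count minimum and the removal of the mitochondrial genome.

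With each rat left out, 4 to 10 members were higher and 0 to 4 lower when iCarP+/Light+ was set against MI; the 4 higher came without iCarP+/Light+ 5, the 10 without MI 4, the 0 lower without iCarP+/Light+ 2 and the 4 lower without iCarP+/Light+ 1. Over all 66 tested members, ranges of the log2 fold change crossed zero for 19 in that comparison, 4 in MI against Sham and 5 in iCarP+/Light+ against Sham. Those of members given with values were, for iCarP+/Light+ against MI, -0.165 to 0.0768 for Hspa12b, -0.0369 to 0.0776 for Hspa4, -0.0586 to 0.184 for Hspa8, -0.0108 to 0.0985 for Hspa9, -0.306 to 0.0066 for Hspb2, -0.493 to 0.141 for Hspb6, -0.127 to 0.0503 for Hspb8, -0.0544 to 0.291 for Hspb11, -0.0711 to 0.0661 for Dnaja2, -0.193 to 0.0214 for Dnaja4, -0.113 to 0.0408 for Dnajb2, -0.230 to 0.321 for Dnajb3, -0.295 to 0.0484 for Dnajc22 and -0.0963 to 0.0447 for Dnajc25; for MI against Sham, -0.187 to 0.0412 for Hspb11, -0.0304 to 0.0969 for Dnajc10 and -0.0313 to 0.0944 for Dnajc14; and for iCarP+/Light+ against Sham, -0.0506 to 0.258 for Hspa2, -0.115 to 0.230 for Hspb11 and -0.172 to 0.0874 for Dnajc9.

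Like-numbered rats were different animals, and their deviations from the group means correlated between -0.15 and 0.07 over 9 pairs, with none above 0.1 and 0 of 12 rats closest to their own number. A replicate block gave 4 members higher and 2 lower than in MI, with Hspb8 at 0.0075, and put Hspb11 at 0.0172 in MI against Sham; Hspa13, Dnajc3 and Dnajc5 lost their calls (edgeR adjusted p = 0.0514, 0.0573 and 0.0584).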
